A study of Mus musculus with 2 samples.

Results

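The Mu class glutathione transferases were represented by 12 probe sets, all those whose platform annotation symbol was Gstm1, Gstm2, Gstm3, Gstm4, Gstm5, Gstm6 or Gstm7. These are 7 genes of 12393 with a probe set of a single symbol. The 12 probe sets are part of 22690 on the array. Liver RNA came from mice lacking apolipoprotein E, a strain prone to high plasma cholesterol and atherosclerosis, and all animals were on a high-fat diet. In 1 group the diet was supplemented with olive oil's unsaponifiable fraction, meaning its minor components other than fatty acid esters. RNA of this group was hybridised to the orujo array, so titled. In the other group the diet was supplemented with olive oil itself, and its RNA was hybridised to the olive array. The labels used here state no strain background, sex, age or number of animals per array, and list no diet without olive oil components. With 1 array per diet there is no replicate check, no p-value is given, and every difference below is a difference between these arrays.

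Glutathione transferases join the tripeptide glutathione to electrophilic compounds, which makes them more soluble and lets the cell export them. The Mu class enzymes are cytosolic dimers, and in the mouse their genes lie side by side in a cluster. In liver, several are known to be induced by electrophiles through the transcription factor NRF2 and by drug-like compounds through the nuclear receptor CAR.

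Signal of 4 Mu class genes, Gstm1, Gstm3, Gstm4 and Gstm6, was at least 2-fold lower on the orujo array in every one of their 8 probe sets, while Gstm2, Gstm5 and Gstm7 stayed within 2-fold in all 4 of theirs. Of all measured probe sets, 1.08% were at least 2-fold lower. Gstm3 differed most, 5.05-fold lower in its brighter probe set. The log2 ratios, orujo minus olive, formed 2 separate runs, with 8 values between −2.34 and −1.19 and the other 4 between −0.07 and 0.48. The values are deposited intensities, scaled to a common trimmed mean. A probe set is called measured if it lay above a floor of 35.6 on both arrays, the middle value of both arrays pooled, and all 12 Mu class probe sets were. In liver tissue, fewer cells of a type and less RNA per cell cannot be told apart. On the same arrays, 7 markers of pancreatic acinar cells had a summed scaled signal of 615 on the orujo array and 4854 on the olive array, and their part in the Mu class signal was not tested.

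The cluster lies on chromosome 3 of the RefSeq table of GRCm38.p6, in the order Gstm5, Gstm7, Gstm6, Gstm3, Gstm2, Gstm1 and Gstm4, with Gstm5 on the plus strand and the other genes on the minus strand. The bases before the RefSeq transcript start are shown for 3 members with lower signal on the orujo array (Gstm1, Gstm3, Gstm4) and for 2 without (Gstm2, Gstm5), so that the letters before genes past and within 2-fold can be read side by side. Each run is 250 bases, 5′ to 3′ on the gene's strand, and ends at the base before the start. Capitals mark 3 searched motifs on either strand: TGACNNNGC, the core of the antioxidant response element bound by NRF2, TATAAA, the TATA box, and CCAAT, the CCAAT box (ATTGG on the other strand).
Gstm1, chr3:108017819-108018068, minus strand, the more downstream of 2 listed starts: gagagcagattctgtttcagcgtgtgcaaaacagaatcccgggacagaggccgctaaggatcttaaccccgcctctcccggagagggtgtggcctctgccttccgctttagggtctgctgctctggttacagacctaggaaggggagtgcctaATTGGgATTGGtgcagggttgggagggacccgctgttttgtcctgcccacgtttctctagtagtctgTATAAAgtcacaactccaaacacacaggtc
Gstm3, chr3:107969175-107969424, minus strand: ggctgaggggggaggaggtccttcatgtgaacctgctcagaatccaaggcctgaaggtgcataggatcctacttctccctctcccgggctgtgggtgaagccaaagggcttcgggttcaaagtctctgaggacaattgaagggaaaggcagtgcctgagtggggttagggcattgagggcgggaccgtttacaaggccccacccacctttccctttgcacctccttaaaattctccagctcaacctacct
Gstm4, chr3:108044860-108045109, minus strand, 1 of 2 listed starts: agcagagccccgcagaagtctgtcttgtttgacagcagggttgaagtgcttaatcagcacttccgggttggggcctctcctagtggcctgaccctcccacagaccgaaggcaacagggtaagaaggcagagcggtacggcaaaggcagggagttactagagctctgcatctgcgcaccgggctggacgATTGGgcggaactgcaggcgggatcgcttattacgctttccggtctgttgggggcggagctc
Gstm2, chr3:107986421-107986670, minus strand: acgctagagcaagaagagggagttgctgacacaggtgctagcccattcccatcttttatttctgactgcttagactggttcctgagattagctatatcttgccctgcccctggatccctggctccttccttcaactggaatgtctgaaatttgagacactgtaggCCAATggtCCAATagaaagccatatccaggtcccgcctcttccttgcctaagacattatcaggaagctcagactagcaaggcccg
Gstm5, chr3:107895604-107895853, plus strand: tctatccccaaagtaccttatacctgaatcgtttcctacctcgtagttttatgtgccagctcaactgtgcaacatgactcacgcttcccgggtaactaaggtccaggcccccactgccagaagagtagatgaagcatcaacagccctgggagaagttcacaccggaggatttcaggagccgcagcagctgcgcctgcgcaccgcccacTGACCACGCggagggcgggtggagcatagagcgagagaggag

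The RefSeq table listed 12 windows for the 7 members, each reaching from 250 bases before a start to 50 bases after it. TGACNNNGC was found in 2 of the 12 windows, against 12.4% of all 32851 windows of that length. The matches began 42 bases before the start of Gstm5 and 129 bases before 1 of the starts of Gstm7, and none was found in the windows of the other members. TATAAA was found in 3 of the 12 windows, against 13.6% of all windows, and in Gstm1 it began 30 bases before the start. CCAAT was found in 10 of the 12 windows, against 37.4% of all, and was missing from those of Gstm3 and Gstm5. No motif overlapped another in the printed runs. Some windows of the same gene overlap, and a match describes letters and is not a measured binding site. Bases outside these windows were not searched, so a missing match holds for the windows alone.

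Gstm1, which encodes the main Mu class subunit of mouse liver, was read by 4 probe sets. Probe set 1448330_at had a deposited intensity of 1780.2 on the orujo array and 4108.2 on the olive array, a 2.30-fold lower value (log2 ratio −1.20). Probe set 1416416_x_at had 2193.5 on the orujo array and 5005.3 on the olive array (2.28-fold lower). Both bright probe sets thus gave nearly the same ratio. The dimmer ones gave somewhat larger differences. Probe set 1425627_x_at had 197.7 on the orujo array and 554 on the olive array (2.80-fold lower), and 1425626_at had 87.1 and 247.1 on those arrays (2.83-fold lower). The 4 log2 ratios of Gstm1 spanned 0.31 units, with a mean of −1.34.

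Gstm3, whose product is a further Mu class subunit, gave the lowest ratios of the class. Probe set 1427474_s_at had a deposited intensity of 163.4 on the orujo array and 826.7 on the olive array, a log2 ratio of −2.34. Its second probe set, 1427473_at, had 45.3 on the orujo array and 217.2 on the olive array, a log2 ratio of −2.26 and a 4.79-fold lower value. The pair differed by 0.08 log2 units, although the second one had only 1.27 times the floor on the orujo array. By its brighter probe set Gstm3 ranked 12th from the lowest among 6640 measured genes.

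Gstm4 and Gstm6 were read by 1 probe set each. Gstm4 (1424835_at) had a deposited intensity of 125.1 on the orujo array and 297.9 on the olive array, 2.38-fold lower (log2 ratio −1.25). Gstm6 (1422072_a_at) had 93.1 on the orujo array and 217 on the olive array, 2.33-fold lower (log2 ratio −1.22). Their ratios lay beside that of Gstm1: Gstm4 ranked 40th, Gstm6 42nd and Gstm1 44th from the lowest among measured genes, a spacing smaller than the measurement noise given below.

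The remaining 3 members were not 2-fold lower. Gstm2, whose human counterpart is known as the muscle form, had a deposited intensity of 212.9 on the orujo array and 153.4 on the olive array, 1.39-fold higher (log2 ratio 0.48). Gstm5, a form best known from brain and testis, had 107.5 on the orujo array and 99.4 on the olive array (log2 ratio 0.12). Gstm7 had 123.2 on the orujo array and 129.5 on the olive array in probe set 1419072_at (log2 ratio −0.07). In its dimmer probe set, 1425946_at, it had 56.9 on the orujo array and 42.5 on the olive array (log2 ratio 0.42). The Gstm7 pair differed by 0.49 log2 units and had opposite signs, so no direction is given for this gene.

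**Figure D1:**
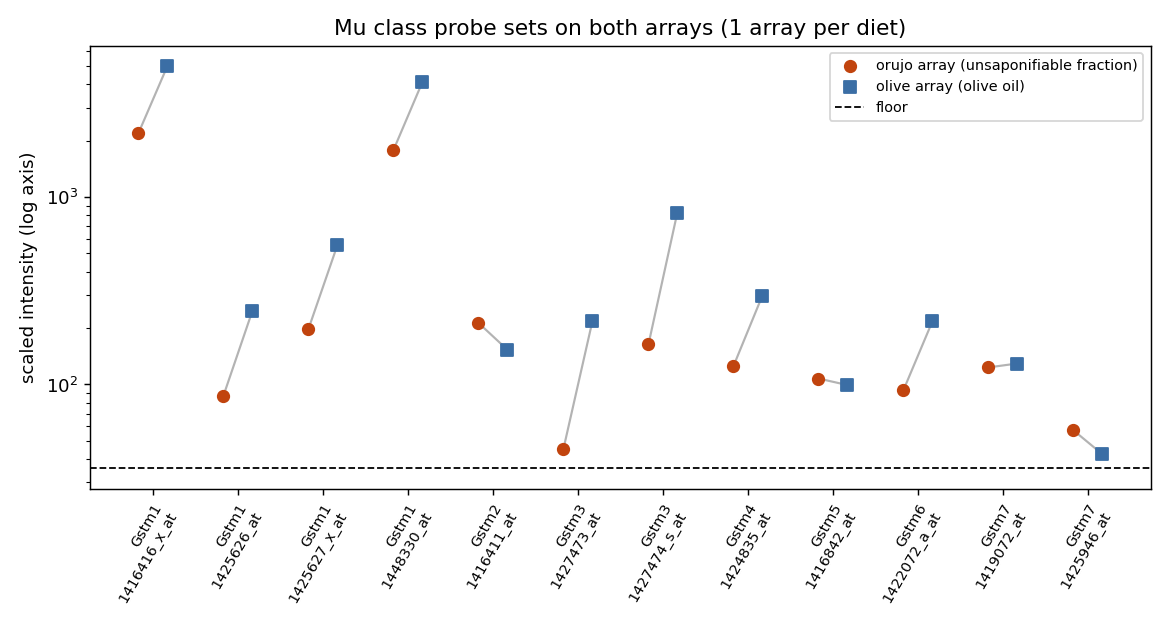
Scaled intensity (log axis) of the 12 Mu class probe sets, with the orujo array as circles and the olive array as squares, joined by a grey line, and the floor of 35.6 dashed. The circle lies below the square for all probe sets of Gstm1, Gstm3, Gstm4 and Gstm6, and above it for Gstm2 and Gstm5.

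The only repeated measurement came from different probe sets of a gene, which read the same labelled RNA and carry no variation between animals. Over the 1451 other genes with exactly 2 measured probe sets, the log2 ratios differed with an SD of 0.44 (0.31 for a single probe set), and 95% of the absolute differences were at most 0.92. That value is for a difference between 2 probe sets and is no limit for a single ratio. The ratios of Gstm1, Gstm3, Gstm4 and Gstm6 exceed it because they were called at 2-fold, so it is no test of them. How far such signals vary between mice on the same diet was not measured.

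Of the 12 Mu class probe sets, 8 were at least 2-fold lower, where 113 of 10462 measured probe sets were (1.08%). None of the 12 was at least 2-fold higher, where 1.36% of all measured probe sets were. By gene, taking the brightest probe set, 4 of 7 members were at least 2-fold lower, against 0.979% of 6640 measured genes. The median log2 ratio was −1.21 over the member probe sets and −0.01 over all measured probe sets. The background was similar among bright probe sets. In the brightest of 4 equal classes, which holds 3 of the Gstm1 and 1 of the Gstm3 probe sets, 1.3% were at least 2-fold lower, and in the class below it 1.64%. The members were chosen with results of these data known, so these shares describe the class and are no test of it.

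**Figure D2:**
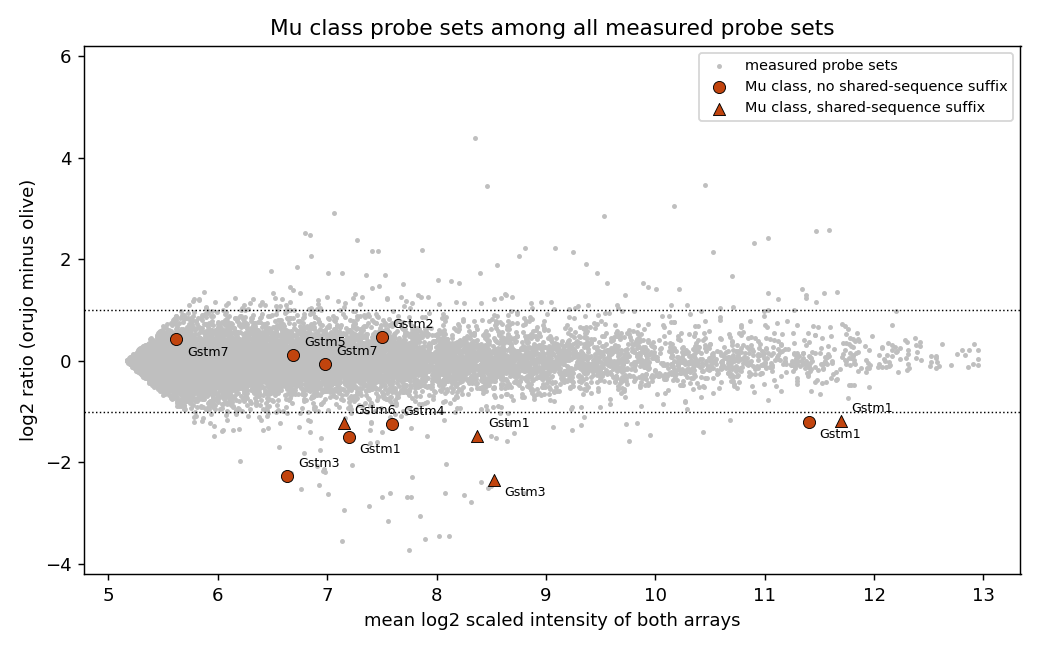
Log2 ratio (orujo minus olive) against the mean log2 scaled intensity for 10462 measured probe sets (grey) and the 12 Mu class probe sets (orange, triangles where the suffix marks shared sequence), with dotted lines at 2-fold. The 8 probe sets of Gstm1, Gstm3, Gstm4 and Gstm6 lie below the lower line, from dim to very bright signal, and the other 4 lie within the main cloud.

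Mu class transcripts are similar to each other in sequence, and 4 of the 12 probe sets carry a suffix that tells of shared sequence. In this array's naming, _s_at and _x_at probe sets can pick up other transcripts, and _a_at probe sets recognise several transcripts of a gene. All 4 (1416416_x_at and 1425627_x_at of Gstm1, 1427474_s_at of Gstm3, 1422072_a_at of Gstm6) were at least 2-fold lower, and of the 8 without a suffix 4 were. Probe sets with such a suffix were at least 2-fold lower in 1.46% of all measured cases, and those without in 0.86%. Gstm1, Gstm3 and Gstm4 each had a probe set without suffix that was at least 2-fold lower, whereas Gstm6 was read only from an _a_at one. Leaving the suffixed probe sets out put the median of the class at −0.64. How much signal passes between related transcripts was not measured, so the ratio of any one member may hold a part of another's.

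Along the chromosome the members with lower signal did not form an unbroken block. Gstm6 and Gstm3 adjoin each other, and Gstm1 and Gstm4 have only the pseudogene Gm12502 between them, but Gstm2, with a log2 ratio of 0.48, lies between these pairs, and Gstm5 and Gstm7 lie at the other end. The pseudogenes Gm9515 and Gm12497 also lie in the cluster, and no pseudogene there had a probe set named for it. The 6 nearest genes with a probe set on each side of the cluster were taken as neighbours, and 8 of these 12 were measured. None was 2-fold higher or lower, against 0.979% of measured genes lower and 1.36% higher, and their median log2 ratio was −0.21. By their brightest probe sets, the ratios of the measured neighbours ranged from −0.44 for Csf1, which encodes a growth factor of macrophages, to 0.36 for Sypl2. Psma5, which encodes a proteasome subunit, was at −0.41, Gnai3, a G protein subunit gene, at −0.31, Slc6a17 at −0.24, Ubl4b at −0.19, Ampd2, an AMP deaminase gene, at −0.16 and Ahcyl1 at 0.15. Second probe sets gave −0.93 for Ampd2, close to 2-fold lower, 0.01 for Psma5 and −0.06 for Csf1, and 2 further ones gave 0.12 and 0.32 for Ahcyl1. Eps8l3, on the Gstm5 side, passed the floor on the olive array alone (scaled signal 19.8 on the orujo array, 48.5 on the olive array). Amigo1, Gnat2 and 4933431E20Rik were below the floor on both.

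**Figure D3:**
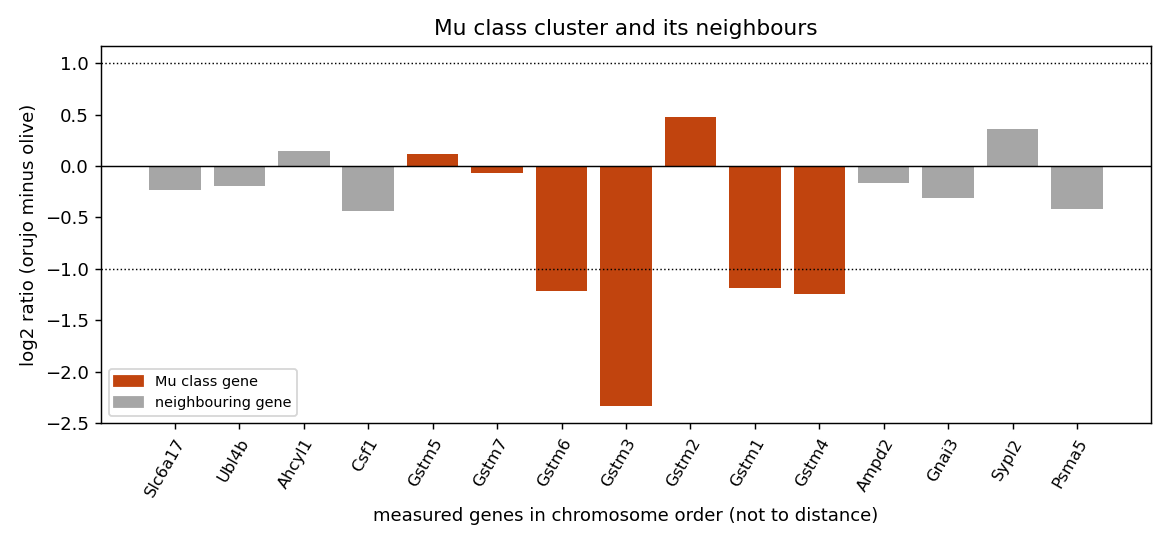
Log2 ratio (orujo minus olive) by the brightest probe set of each measured gene, in chromosome order without distances, for the 7 Mu class genes (orange) and 8 neighbouring genes (grey), with dotted lines at 2-fold. Gstm6, Gstm3, Gstm1 and Gstm4 pass the lower line, Gstm2 lies between these pairs with a positive ratio, and no measured neighbour passes 2-fold. Csf1, Ampd2, Slc6a17 and Sypl2 lay too near the floor to pass it.

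Glutathione transferases of other classes were lower in part. Of 17 listed genes 14 had a probe set and 12 were measured, 10 with negative ratios. Their median was −0.44, where the median of all measured genes was −0.02. The alpha class genes Gsta4 and Gsta2, whose products act on lipid peroxidation products and on peroxides, were 4.64-fold and 4.53-fold lower, and Gsta2 was read from a probe set with a shared-sequence suffix. Gstt3 of the theta class was 1.87-fold lower, and Gsto1 of the omega class was highest at 0.27 on the log2 scale, with −0.68 in its other probe set. At least 2-fold lower were 4 of 7 genes in the Mu class and 2 of 12 measured genes in the other classes, a difference that was not tested. Of all measured genes, 0.979% were at least 2-fold lower. At a 3-fold limit 1 Mu class gene and 2 genes of the other classes were lower, where 0.373% of all measured probe sets were. Of all measured genes that are not Mu class, the closest to Gstm3's log2 ratio of −2.34 on the lower side were Cel, a pancreatic lipase gene, at −2.44 and Hspb1, a small heat shock protein gene, at −2.46. On the higher side they were 2210010C04Rik at −2.29 and Gsta4 at −2.21. This likeness rests on a single difference between 2 arrays.

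Genes of NRF2, its regulators and its targets had 24 measured members of 29 listed, of which 5 were at least 2-fold lower, 0 at least 2-fold higher, and 17 had negative ratios (median −0.57). Of all 6640 measured genes, 0.979% were at least 2-fold lower, 1.36% at least 2-fold higher, and 3485 had negative ratios. Aox1, an aldehyde oxidase gene, had a scaled signal of 144 on the orujo array and 404 on the olive array, 2.80-fold lower. Ephx1, which encodes the microsomal epoxide hydrolase, was 2.63-fold lower. Abcc3, which encodes an exporter of conjugated compounds, was 2.36-fold lower. Taldo1, of the pentose phosphate pathway, was the highest measured on both arrays at 0.18. Mafk, which encodes a partner of NRF2, passed the floor on the orujo array alone and was at least 1.44-fold higher. The remaining list members past 2-fold, named after their values were seen, were Ces1g (2.32-fold lower) and Gclc (2.16-fold lower). Nfe2l2, the gene of NRF2 itself, also named after its value was seen, was 1.78-fold lower, and Keap1, which encodes its inhibitor, was at 0.08. The other measured genes of the list stayed within 2-fold. Among them, again named with values seen, were the targets Nqo1 at −0.61, Gclm at −0.27 and Hmox1 at 0.15. Among 6 listed exporters of glutathione conjugates 3 were measured: Abcc3, Abcc2 at −0.68 and Abcg2 at 0.01. Their median, −0.68, is the Abcc2 value, read from an _s_at probe set with a scaled signal of 52 on the orujo array. Abcc3 is also in the NRF2 list, and Abcc2 is also among the CAR and PXR genes below.

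Enzymes that make glutathione or use it against oxidants showed little common direction. Of 29 listed genes 20 were measured, with 12 negative ratios and a median of −0.10. At least 2-fold lower was 1 gene and at least 2-fold higher 1 gene, against 0.979% and 1.36% of all measured genes. Gclc, the catalytic subunit of the rate-limiting enzyme of glutathione synthesis, was lowest at −1.11, with −1.24 in its other probe set. Gsr, glutathione reductase, was at −0.64, with −0.10 in its other probe set. Prdx4, a peroxiredoxin gene, was at 0.62. Sod1, superoxide dismutase 1, was the single member at least 2-fold higher (log2 ratio 1.24), but its other probe set gave −0.50. CAR and PXR genes, which cover the receptors for drug-like compounds, partners and targets, had a median of −0.01 over 15 measured genes of 22 listed, with 0 at least 2-fold lower and 1 at least 2-fold higher. That gene was Cyp2b10, the classic CAR target, which had a scaled signal of 1276 on the orujo array and 288 on the olive array (log2 ratio 2.15). Cyp3a13 was at 0.91, Sult1d1 at 0.56, and Abcc2 was the lowest measured on both arrays at −0.68. Cyp2c37 passed the floor on the olive array alone and was at least 1.60-fold lower on the orujo array.

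**Figure D4:**
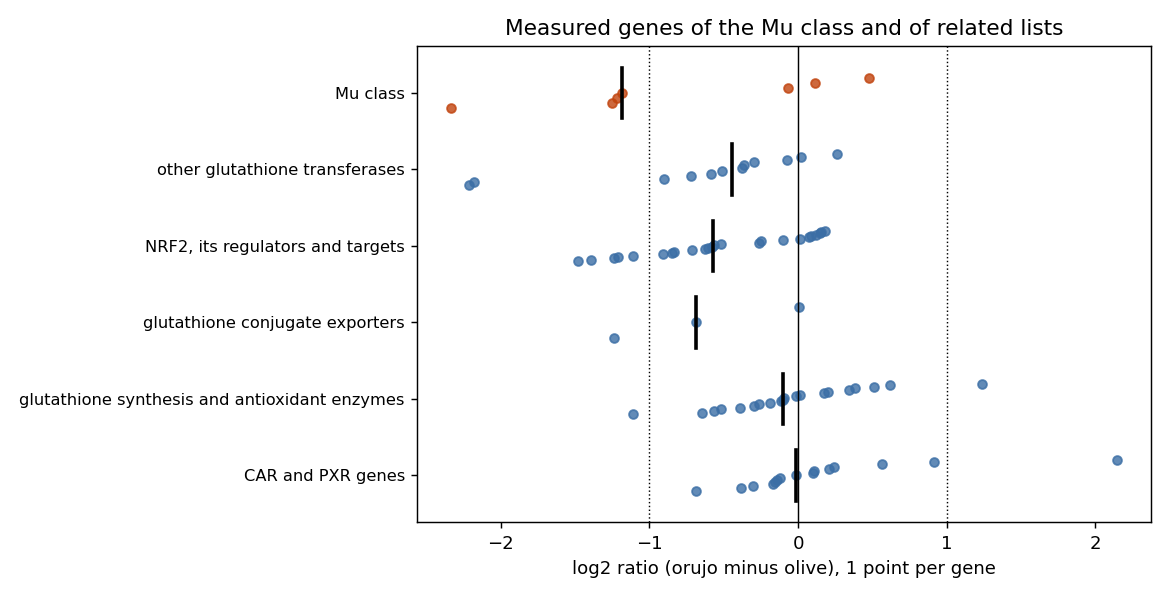
Log2 ratio (orujo minus olive) of each measured gene by its brightest probe set, for the 7 Mu class genes (orange) and 5 related lists (blue), with a black bar at each median and dotted lines at 2-fold. The Mu class splits into 4 genes past the lower line and 3 within 2-fold, while CAR and PXR genes centre on 0.

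Further features of the arrays are given here, and their part in the Mu class signal was not tested either. The pancreatic acinar markers were at least 2-fold lower on the orujo array in 7 of 7 genes with a probe set (9 listed), against 0.979% of all measured genes. The control probe sets for 18S ribosomal RNA had log2 ratios of 2.54 (5′), 2.48 (middle) and 0.34 (3′). Those of beta-actin lay between −0.27 and 0.01 and those of Gapdh between 0.09 and 0.15. Hepatocyte markers showed the labelled tissue on both arrays: 6 of 6 with a probe set were measured and within 2-fold, with sums of 38719 and 37957 on the orujo and the olive array. Macrophage markers were measured in 6 of 6 cases (sums 1592 and 1455 on those arrays) and neutrophil markers in 4 of 7 cases (sums 211 and 218), all within 2-fold. A further 2 neutrophil markers, S100a8 and S100a9, passed the floor on the orujo array alone, and over all 7 neutrophil markers the sums were 323 on the orujo array and 262 on the olive array. Cholangiocyte markers were measured in 0 of 4 cases, with 1 above the floor on the olive array alone and sums of 39.6 and 52.1 on the orujo and olive arrays, and no marker of any of these lists was at 0. Apoe, the gene the mice lack, had scaled signals of 99.7 on the orujo array and 103 on the olive array (log2 ratio −0.04), but the labels used here do not say whether its probe set falls in the removed stretch, so it checks no label.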

How the data were processed

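The authors deposited probe set intensities (linear scale) for 2 Affymetrix arrays, 1 per diet; per the labels, about 8 µg of total RNA was used. The software and any detection calls are not stated in the labels. Here, both arrays were scaled by their 2% trimmed means over 22626 non-control probe sets (99.2 for orujo, 99.4 for olive), which multiplied intensities by 1.001 and 0.999. Scaled intensities below the 50th percentile of the pooled arrays were set to that floor, then log2 was taken. The number of arrays limits the precision, and no test of the diets was possible. All 7 member symbols matched RefSeq by Entrez identifier. Genes were read from their brightest probe set (mean log2) and called lower or higher at 2-fold. Named genes were all members with all probe sets, all neighbours of the cluster, Apoe, the highest and lowest measured gene of each related list with the 2 others of largest ratio, and the 2 genes nearest to the most extreme member on each side. Marker lists were given as sums and counts. Members and lists were chosen with earlier results of these data known. Sequences are RefSeq promoters of GRCm38.p6. The calculation was tested on simulated data with large differences planted in bright probe sets. That test covered neither differences near 2-fold nor dim probe sets. Python 3.11.15, numpy 2.4.6, pandas 2.3.3, scipy 1.17.1 and matplotlib 3.10.9 were used. Alternatives covered scaling, floor, shared-sequence probe sets, averaging of probe sets and the size limit.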

Additional observations from a re-analysis of the deposited data

How the results depend on the processing

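No paired analysis was possible because each diet has 1 array. The ratios of Gstm1, Gstm3 and Gstm4 stayed at least 2-fold lower under all scalings and floors that measured them, and that of Gstm6 did too except on the log2(value + floor) scale (−0.97). The ratios of Gstm2 (0.40 to 0.49) and Gstm5 (0.09 to 0.13) stayed positive. All alternatives use the same 2 arrays, and the Gstm5 ratio is smaller than the single probe set SD of 0.31, so no direction is given for Gstm5. With the floor at the 75th percentile (101 in scaled intensity) 7 Mu class probe sets were measured. Of these, 5 were at least 2-fold lower, where 0.868% of all measured probe sets were. A further 3 were lower by a bound of at least 2.44-fold (Gstm1), 2.14-fold (Gstm3) and 2.14-fold (Gstm6). The other glutathione transferases at least 2-fold lower were 0 by measured ratios, because Gsta2 and Gsta4 then had bounds only, of at least 2.65-fold and 2.16-fold lower. Without probe sets of shared sequence, 4 Mu class probe sets were lower, where 0.86% of all measured ones were. The class median was then −0.64, and 1 other glutathione transferase was lower. With the 3-fold limit, which 0.373% of all measured probe sets passed on the lower side, 2 Mu class probe sets and 1 gene were lower. At that limit 2 other glutathione transferases were lower and 1 CAR or PXR gene was higher. Of the antioxidant genes in either direction, the NRF2 genes and the exporters, 0 passed it. With the 1.5-fold limit, which 5.59% passed on the lower side, 4 other glutathione transferases, 2 antioxidant genes, 11 NRF2 genes, 2 exporters and 1 CAR or PXR gene were lower, and 2 antioxidant and 2 CAR or PXR genes were higher. With the floor at the 25th percentile, 2.36% of all measured probe sets were at least 2-fold lower, 2 antioxidant genes and 1 NRF2 gene were higher and 1 neighbour was lower. On the log2(value + floor) scale the ratio of Gstm3 probe set 1427473_at was −1.64, the exporter median was −0.25 and 0.407% of all probe sets were at least 2-fold lower, and with the mean over probe sets 0 antioxidant genes were higher. The higher floor and leaving out shared sequence test fewer probe sets by construction. The dimmer probe sets of Gstm3 and Gstm7 lay near the floor, as did the probe sets of Gsta4 and Nqo1 on the orujo array.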
